A study of Mus musculus with 6 samples.

Results

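Fibroblast growth factors (FGFs) and neurotrophic factors are secreted proteins that keep retinal neurons alive and that retinal glia release more of after injury. The genes described here are the ligand genes Fgf1, Fgf2 and Fgf9, the receptor genes Fgfr1, Fgfr2 and Fgfr3, the neurotrophic factor genes Bdnf and Gdnf, and Nudt6, which is transcribed from the opposite strand next to Fgf2. They were picked by gene symbol, with earlier results of these arrays known, and number 9 of the 18193 genes that the platform annotation names with 1 symbol per probe set. On the Affymetrix mouse genome array they are read by 19 probe sets, each a group of short probes against 1 transcript region.

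The arrays hold whole retinas of adult mice. The OC2-KO group carries null alleles of Onecut2, a loss that is not limited to the retina, and the OC2-WT group consists of wildtype littermates, with 3 arrays per genotype and 1 retinal RNA sample per array. Onecut2 encodes a transcription factor with a cut domain that horizontal cells use, and the study set out to learn which transcripts differ in the mature retina without it. The sources used here give neither the strain nor the exact age, and name no drug or injury. The study names littermates as controls, but the sample titles do not name separate animals. P-values therefore measure the spread between arrays, which may be partly technical.

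FGF ligands bind receptor tyrosine kinases on the cell surface together with heparan sulphate chains, and the receptors signal through the MAP kinase cascade. Sprouty, Spred and dual-specificity phosphatase genes are switched on by that cascade and damp it. Fgf2 is the classic survival factor of stressed photoreceptors and is made mainly by Müller glia and photoreceptors. Bdnf acts on ganglion cells and amacrine cells through the receptor TrkB, and Gdnf acts through GFRα co-receptors and Ret. Nudt6 encodes a Nudix hydrolase, and its RNA is known as an antisense partner of Fgf2 RNA because the 3' parts of both genes overlap.

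The values are MAS5 intensities on a log2 scale, scaled by the authors, and the trimmed mean is the same on each array. Median intensity ran from 94.9 to 110 over the 6 arrays. The 3 Onecut2 probe sets stood at log2 intensities of 5.28 to 7.01 on the OC2-WT arrays and 8.52 to 9.23 on the OC2-KO arrays, and the study places the array's Onecut2 sequences at the 3' end of the gene, so they do not check the labels. Arrays that share a number deviated in the same direction, and each such couple is called a pair. The Actb probe sets at the 3' and 5' ends, whose gap widens as RNA degrades, differed by 2.95 and 3.39 on the log2 scale in pair 3 and by 0.71 to 1.41 on the other arrays. Xist and Y-linked transcripts gave matching sexes within pairs 1 and 2, and a female OC2-WT with a male OC2-KO pattern in pair 3.

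Testing was limited to probe sets with a mean above 7 (log2) in OC2-WT, in OC2-KO or in both, a filter taken from the study. This kept 21176 of 45037 probe sets, and 10 of the 19 described here, which belong to 6 of the 9 genes. Fgf2, Fgfr3 and Gdnf had no kept probe set. Limma called no probe set of the array after Benjamini-Hochberg adjustment (0% of 21176), with a smallest adjusted p of 0.210, and 209 had an unadjusted p under 0.05 (0.987%). Of the 10 kept here, 0 passed adjustment, each with an adjusted p of 1.00, and 1 had an unadjusted p under 0.05. Their log2 differences ran from -0.31 to 0.91, with 6 above 0, 4 below 0 and a median of 0.099, where all kept probe sets had a median of -0.0084.

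**Figure D1:**
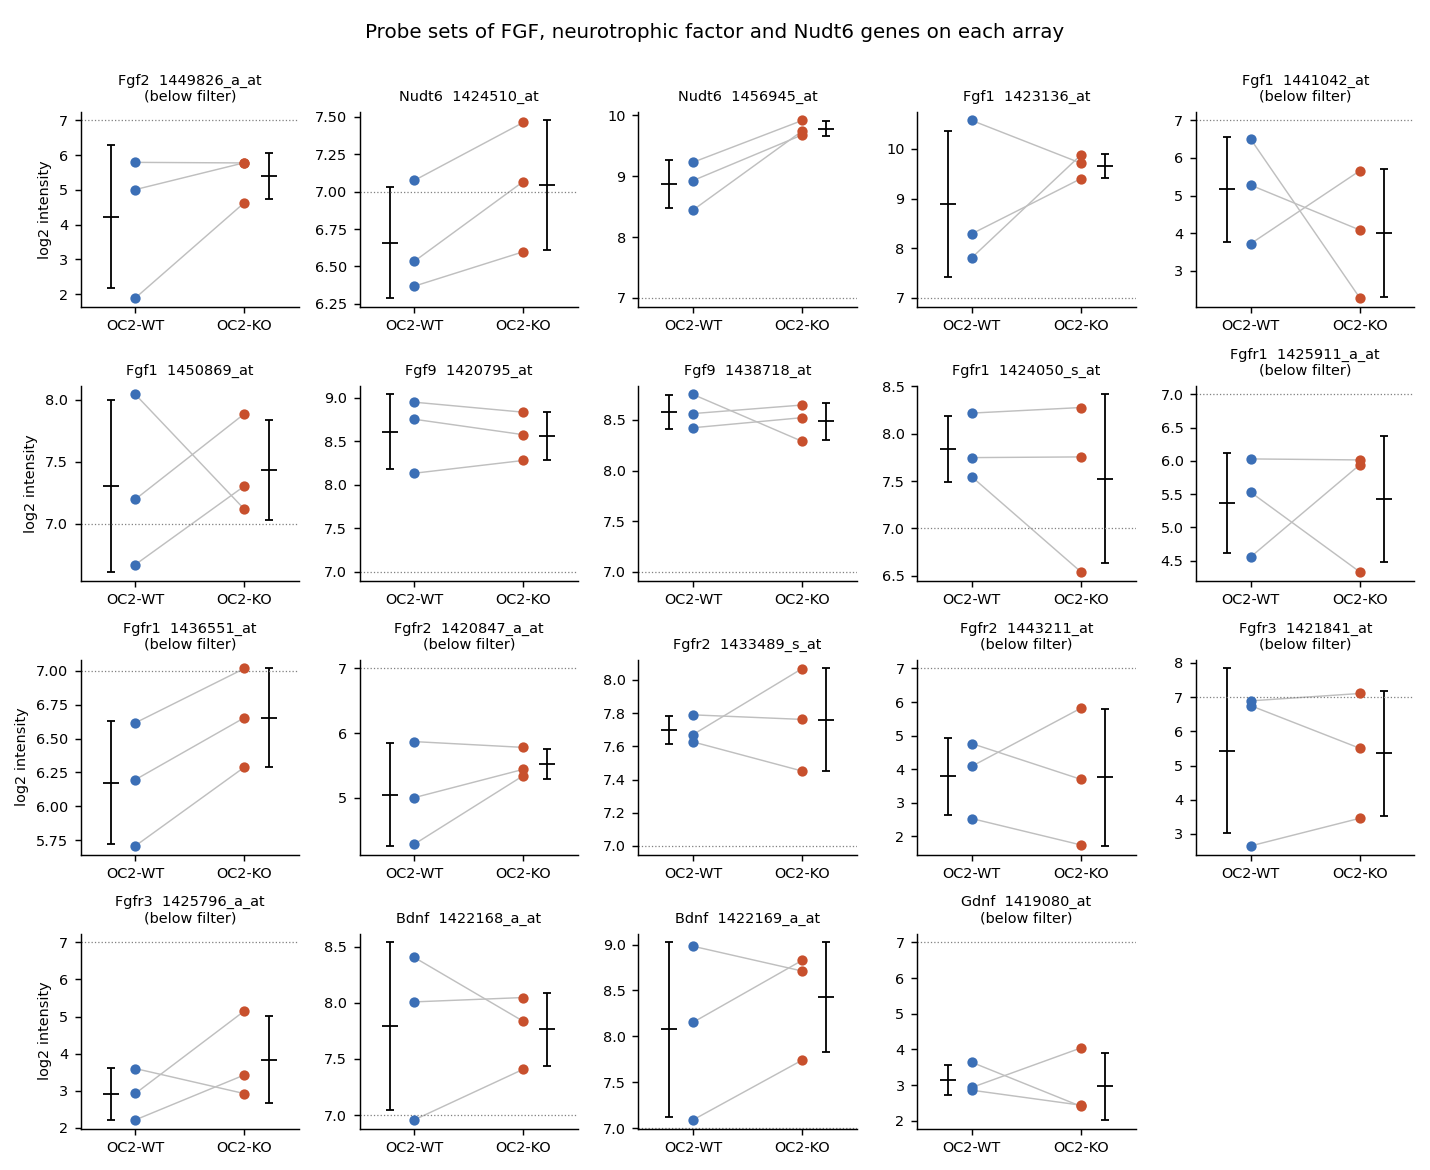
Log2 intensity (vertical axis, scaled panel by panel) of all 19 probe sets on each array, by genotype (horizontal axis). Points are arrays, grey lines join arrays of the same number, black bars give the mean and SD of 3 arrays, and the dotted line marks the filter at 7. Only for Nudt6 on 1456945_at do all 3 OC2-KO arrays (9.68 to 9.92) lie above all 3 OC2-WT arrays (8.44 to 9.23).

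Of the 10 kept probe sets described here, a Nudt6 probe set had the largest difference. On 1456945_at its log2 intensity was 8.93, 9.23 and 8.44 on OC2-WT arrays 1, 2 and 3 and 9.68, 9.92 and 9.74 on OC2-KO arrays 1, 2 and 3. The lowest OC2-KO array stood above the highest OC2-WT array, and the OC2-KO arrays lay closer together than the OC2-WT arrays. In linear units the intensities were 348 to 600 in OC2-WT and 819 to 966 in OC2-KO. The OC2-WT mean was 8.87 ± 0.40 and the OC2-KO mean 9.78 ± 0.12 on the log2 scale (SD, n = 3). The difference was 0.91 ± 0.26 (SE), or 1.88-fold, with a 95% interval of 0.30 to 1.52 and a limma adjusted p of 1.00.

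By its unadjusted limma p of 0.0092, this probe set ranked 39 of 21176. Non-overlap of the genotypes was seen in 1 of the 10 kept probe sets here and in 3.28% of all kept probe sets, 1.72% of all being higher in OC2-KO. The OC2-KO array was higher in 3 of 3 pairs, by 0.75, 0.69 and 1.30 in pairs 1, 2 and 3. Of the 10 kept probe sets here, 2 were higher in all pairs and 0 were lower in all pairs. The share of all kept probe sets with pairs of the same sign was not counted. Pair 3, in which the sexes differ and the Actb gap is widest, had the largest difference, and without both of its arrays the difference was 0.72 with an unadjusted limma p of 0.043. Its sign was kept and its unadjusted p stayed under 0.05 in all 17 alternative settings tried, with differences from 0.70 to 1.09, and in none did it pass adjustment. With the replicate block the unadjusted limma p was 0.0037, in a fit that gave 4.19% of all probe sets an unadjusted p under 0.05. The study listed this probe set among those higher on these same arrays, so its direction is not independent evidence.

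The other Nudt6 probe set, 1424510_at, stood at log2 intensities of 7.07, 6.53 and 6.37 on OC2-WT arrays 1, 2 and 3 and at 7.46, 7.07 and 6.60 on OC2-KO arrays 1, 2 and 3. The genotypes overlapped, but the OC2-KO array was higher in each pair, by 0.39, 0.53 and 0.23. The mean difference was 0.38 ± 0.31 (SE), with a 95% interval of -0.34 to 1.11, in the fit that ignores the pairs. Its unadjusted limma p was 0.25 there and 0.055 with the replicate block, where the adjusted p was 0.999. The difference ran from 0.24 without OC2-WT array 3 to 0.61 without OC2-KO array 3, and was 0.59 without OC2-WT array 1. Without OC2-KO array 1 the probe set did not pass the filter. This probe set passed the filter only through its OC2-KO mean of 7.04, since the OC2-WT mean was 6.66. Its mean difference could therefore not have been below 0. Whether the 2 Nudt6 probe sets differ from each other in their response was not tested.

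Fgf2, the ligand gene whose RNA overlaps that of Nudt6, is read by a single probe set, 1449826_a_at, which did not pass the filter. Its log2 intensity was 5.01, 1.89 and 5.79 on OC2-WT arrays 1, 2 and 3 and 5.78, 4.64 and 5.78 on OC2-KO arrays 1, 2 and 3. All 3 OC2-KO arrays lay within the OC2-WT range, and OC2-WT array 2 stood far below the rest at a linear intensity of 3.71. Pairs 1, 2 and 3 differed by 0.77, 2.74 and -0.016. In a limma fit without the filter the difference was 1.17 ± 1.06 (SE), with a 95% interval of -1.45 to 3.78, so a change of Fgf2 in either direction by more than 2-fold was within the interval. The intensities of 3.71 to 55.5 in linear units are close to the lower end of the array, where MAS5 values are imprecise.

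In the RefSeq annotation of GRCm38.p6 the ranges of Fgf2 and Nudt6 overlap each other, and each also overlaps a further gene on its outer side. Fgf2 overlaps the long non-coding RNA gene Fgf2os, and Nudt6 overlaps Spata5, which encodes an AAA ATPase and is transcribed away from Nudt6. The bases before the start of Nudt6 are shown because 147 of these 250 bases also precede an annotated start of Spata5. From this pair of starts the genes run in opposite directions away from a shared stretch of DNA. The overlap of the Nudt6 and Spata5 ranges therefore does not come from this pair of starts, and its source was not worked out. The bases before the start of Fgf2 are given for contrast. Sequences are from RefSeq, 5' to 3' on the gene's own strand, with the motif GGGCGG (the GC box bound by Sp factors, read on both strands) in capitals.
Nudt6, chr3:37419597-37419846, minus strand: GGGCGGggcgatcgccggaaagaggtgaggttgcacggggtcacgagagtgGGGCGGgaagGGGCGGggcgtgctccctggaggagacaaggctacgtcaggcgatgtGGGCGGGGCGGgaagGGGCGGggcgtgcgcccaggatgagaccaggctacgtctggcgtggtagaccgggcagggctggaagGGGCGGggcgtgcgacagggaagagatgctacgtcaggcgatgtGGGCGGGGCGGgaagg
Fgf2, chr3:37348403-37348652, plus strand: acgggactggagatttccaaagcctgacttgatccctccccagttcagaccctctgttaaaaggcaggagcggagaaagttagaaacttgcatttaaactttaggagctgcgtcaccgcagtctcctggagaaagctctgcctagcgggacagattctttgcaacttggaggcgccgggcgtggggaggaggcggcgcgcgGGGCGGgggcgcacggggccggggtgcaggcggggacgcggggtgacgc

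The Nudt6 window held 9 GC box matches, some of them overlapping, and was 71.6% G and C, while the Fgf2 window held 1 match and was 62.4% G and C. Over 32851 promoter windows of the same length the median was 52.4% G and C, and 0.0731% of windows held at least 9 GC box matches. The GC box was looked for after the sequences had been seen. The Onecut core motif ATTGAT was present on either strand in 6.72% of all windows and in 1 of 15 windows of 7 genes described here, at Fgfr2. The STAT motif TTCNNNGAA was present in 7.02% of all windows and in 1 of the 15, at Bdnf, and the C/EBP motifs TTGCGCAA and TTGCGAAA, found in 0.164% and 0.143% of all windows, were in none. Neither Nudt6 nor Fgf2 held any of these 4 motifs within 250 bases of its start.

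The genes beside Fgf2 and Nudt6 did not separate the genotypes. Spata5 had 3 kept probe sets, with log2 differences of 0.27, 0.12 and 0.28, limma 95% intervals between -0.68 and 1.21, and overlapping genotypes on each. On 1417254_at Spata5 stood at log2 intensities of 8.46, 8.69 and 7.21 on OC2-WT arrays 1, 2 and 3 and at 8.32, 8.62 and 8.23 on OC2-KO arrays 1, 2 and 3, so that pair 3 differed by 1.03 and the others by -0.14 and -0.076. Bbs12, a chaperonin-like gene of the cilium on the Fgf2 side, differed by 0.020 ± 0.32 (SE). Fgf2os, below the filter, differed by -0.44 ± 0.53 (SE) with pairs at -1.11, -0.87 and 0.65. Spry1, a Sprouty inhibitor of FGF signalling that lies farther along on the Nudt6 side and was picked after its values were seen, differed by -0.028 ± 0.21 (SE). The remaining 3 neighbours in the annotation, Gm12540, Gm36412 and Gm12565, have no probe set of their own name.

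**Figure D2:**
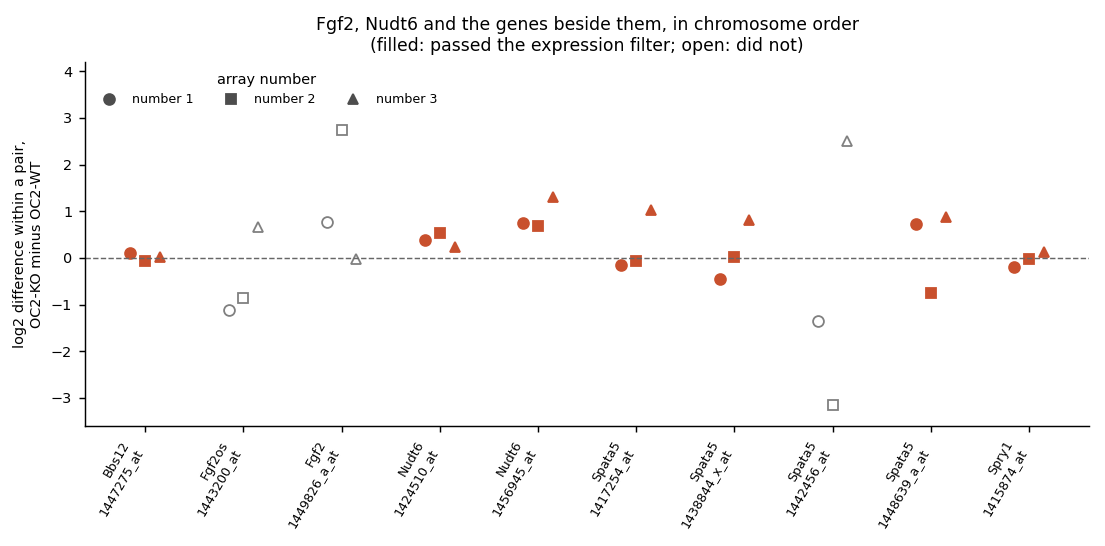
Log2 difference within each pair of same-numbered arrays, OC2-KO minus OC2-WT (vertical axis), for probe sets of Fgf2, Nudt6 and the genes beside them in chromosome order (horizontal axis, order only and not to scale), with filled symbols for probe sets that passed the filter. Both Nudt6 probe sets lie above 0 in every pair (0.23 to 1.30), while the kept Spata5, Bbs12 and Spry1 probe sets each have pairs on both sides of 0. How often all pairs share a sign over the whole array was not counted. Nudt6 on 1424510_at passed the filter only through OC2-KO, so its mean difference could not have been below 0.

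Fgf1, which encodes a ligand able to activate all FGF receptors and lies on the chromosome that carries Onecut2, varied more between OC2-WT arrays than between genotypes. On 1423136_at its log2 intensity was 8.29, 10.57 and 7.81 on OC2-WT arrays 1, 2 and 3 and 9.40, 9.71 and 9.88 on OC2-KO arrays 1, 2 and 3. The OC2-KO arrays all lay between the OC2-WT arrays, because OC2-WT array 2 was the highest of the 6. The difference was 0.77 ± 0.67 (SE), with a 95% interval of -0.81 to 2.35, and pairs differed by 1.11, -0.86 and 2.07. Without OC2-WT array 2 the difference was 1.61 ± 0.30 (SE), with an unadjusted limma p of 0.0015 and an adjusted p of 1.00. That was the highest value with any 1 array left out, and the lowest was 0.23, without OC2-WT array 3. Without both arrays numbered 3 the difference was 0.12.

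The other Fgf1 probe sets did not follow 1423136_at. On 1450869_at the log2 intensities were 7.20, 8.05 and 6.67 on OC2-WT arrays 1, 2 and 3 and 7.89, 7.12 and 7.31 on OC2-KO arrays 1, 2 and 3, a difference of 0.13 ± 0.39 (SE). OC2-WT array 2 was again the highest. On 1441042_at, below the filter, the difference was -1.16 ± 1.08 (SE), with pairs from -4.23 to 1.94.

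Fgf9, a ligand of FGFR2 and FGFR3 with a role in early eye patterning, had the narrowest intervals of the ligands. On 1420795_at it stood at log2 intensities of 8.95, 8.75 and 8.13 on OC2-WT arrays 1, 2 and 3 and at 8.84, 8.58 and 8.28 on OC2-KO arrays 1, 2 and 3. Both genotypes followed the same order over the pairs, with number 1 highest and number 3 lowest. The difference was -0.049 ± 0.29 (SE), with a 95% interval of -0.73 to 0.63. On 1438718_at the difference was -0.093 ± 0.21 (SE), with a 95% interval of -0.60 to 0.41, and the OC2-WT arrays at 8.42 to 8.75 overlapped the OC2-KO arrays at 8.29 to 8.65.

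Of the receptor genes, Fgfr2 was the most even between arrays. On 1433489_s_at its log2 intensity was 7.63, 7.79 and 7.67 on OC2-WT arrays 1, 2 and 3 and 7.45, 7.76 and 8.07 on OC2-KO arrays 1, 2 and 3. The difference was 0.065 ± 0.23 (SE), with a 95% interval of -0.48 to 0.61. The other Fgfr2 probe sets were below the filter and differed by 0.47 and -0.040.

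Fgfr1, the main FGF receptor of neurons, was kept on 1424050_s_at, where 1 array set the difference. The log2 intensity was 7.54, 7.75 and 8.22 on OC2-WT arrays 1, 2 and 3 and 6.54, 7.75 and 8.28 on OC2-KO arrays 1, 2 and 3. Pairs 2 and 3 differed by 0.0072 and 0.059, and OC2-KO array 1 was the lowest of the 6. The mean difference was -0.31 ± 0.45 (SE), and it was 0.18 without OC2-KO array 1. On 1436551_at, below the filter, Fgfr1 was higher in OC2-KO in each pair, by 0.46, 0.40 and 0.58, with overlapping genotypes and an interval of -0.43 to 1.38.

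Fgfr3, the third receptor gene, did not pass the filter on either probe set. On 1421841_at the log2 intensity was 6.75, 6.89 and 2.65 on OC2-WT arrays 1, 2 and 3 and 5.50, 7.11 and 3.46 on OC2-KO arrays 1, 2 and 3. Both arrays of pair 3, those with the wide Actb gap, were far below the others, and the genotype difference was -0.074 ± 1.46 (SE). On 1425796_a_at the difference was 0.92 ± 0.69 (SE), at intensities no higher than 35.5 in linear units.

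Bdnf, the ligand of TrkB, was kept on both of its probe sets. On 1422169_a_at the log2 intensity was 8.98, 8.15 and 7.09 on OC2-WT arrays 1, 2 and 3 and 8.71, 8.83 and 7.74 on OC2-KO arrays 1, 2 and 3. Pair 3 held the lowest array of each genotype. The difference was 0.35 ± 0.52 (SE), with a 95% interval of -0.87 to 1.57. On 1422168_a_at the log2 intensity was 8.40, 8.01 and 6.96 on OC2-WT arrays 1, 2 and 3 and 7.83, 8.05 and 7.41 on OC2-KO arrays 1, 2 and 3, a difference of -0.027 ± 0.40 (SE). Gdnf, the founding member of its family, was near the bottom of the scale on 1419080_at, with log2 intensities of 2.85 to 3.64 in OC2-WT and 2.40 to 4.04 in OC2-KO.

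**Figure D3:**
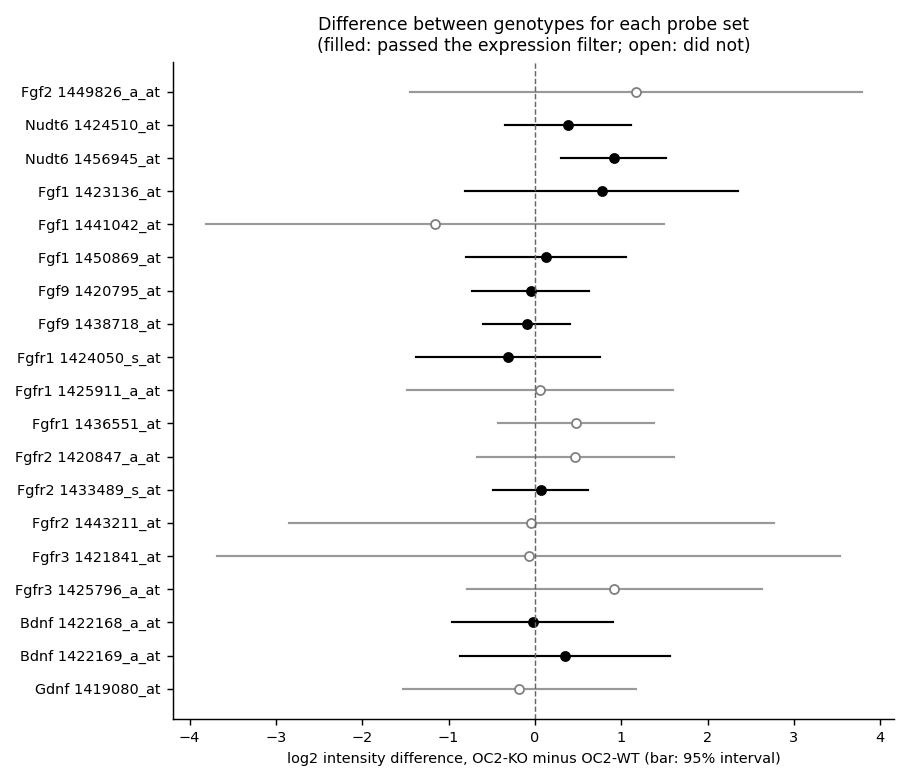
Log2 intensity difference, OC2-KO minus OC2-WT (horizontal axis), for each of the 19 probe sets (vertical axis), with bars for the limma 95% interval, filled points for probe sets that passed the filter and open points for those fitted without it. The interval of Nudt6 on 1456945_at (0.30 to 1.52) is the only one that does not cross 0 before adjustment, and the intervals of probe sets below the filter are mostly wider than those of kept ones.

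In whole retina, fewer cells of a type and less RNA per cell cannot be told apart, and this holds for each gene named here and below. The wider pathway was described with 7 lists, on 77 of 122 genes that had a kept probe set, each gene by its brightest kept probe set. None of the 77 had an unadjusted limma p under 0.05 or passed adjustment, where 0.985% of 11065 genes had such a p. The difference was above 0 in 35 and below 0 in 42, with a median of -0.030 against -0.0048 over all genes. The genotypes did not overlap in 3 of the 77, where 3.78% of all genes showed no overlap. With the replicate block, 5 of the 77 had an unadjusted p under 0.05 in limma, namely Spry3, Il17rd, Dusp4, Igf1 and Nxnl1, each with an adjusted p of 0.999. In that fit 3.53% of all 11065 genes had such a p. Il17rd, which passed the filter only through OC2-KO, counts among the 35 above 0, the 3 without overlap and these 5.

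Among 18 feedback and target genes of FGF signalling, 6 were above 0 and 12 below 0, with a median log2 difference of -0.088. Dusp4, a phosphatase that switches off MAP kinases, stood at log2 intensities of 10.37, 10.53 and 10.51 on OC2-WT arrays 1, 2 and 3 and at 9.66, 9.99 and 10.22 on OC2-KO arrays 1, 2 and 3. Every OC2-KO array was below every OC2-WT array, by a mean difference of -0.51 ± 0.23 (SE). Il17rd, which encodes Sef, an antagonist of FGF receptors, went the other way, at 6.67, 6.14 and 6.53 on OC2-WT arrays 1, 2 and 3 and 6.92, 6.79 and 7.33 on OC2-KO arrays 1, 2 and 3, a difference of 0.56 ± 0.25 (SE). Il17rd passed the filter only through its OC2-KO mean of 7.01, so its difference could not have been below 0. Spry3, another Sprouty gene, differed by -0.67 ± 0.39 (SE) and was lower in 3 of 3 pairs. For this gene and those below, the share of all genes with pairs of the same sign was not counted. In a fit on 1 row per gene, the mean of its kept probe sets, Dusp4 and Il17rd had unadjusted limma p of 0.043 and 0.044. Their differences were the same as above, and only the SE and p moved.

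The 3 kept genes of 19 other FGF ligands were Fgf11, Fgf12 and Fgf13, members of the intracellular subfamily that binds sodium channels and is not secreted. They differed by -0.25, -0.32 and -0.052 on the log2 scale, each with overlapping genotypes. Of 17 other FGF receptor and co-receptor genes 10 were kept, with a median of 0.088. Hspg2, which encodes the heparan sulphate proteoglycan perlecan, differed by 0.54 ± 0.43 (SE) and was higher in 3 of 3 pairs. The syndecan gene Sdc2 differed by 0.28 and the decoy receptor gene Fgfrl1 by 0.25.

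In the other neurotrophin list, 7 of 11 genes were kept, with a median log2 difference of 0.027. Ntrk3, which encodes the neurotrophin 3 receptor TrkC, did not overlap between genotypes, at 7.90 to 8.26 in OC2-WT and 8.29 to 8.39 in OC2-KO, but its difference was only 0.25 ± 0.20 (SE). The neurotrophin receptor gene Ngfr differed by 0.22 and the sortilin-like Sorcs3 by -0.30. Of 11 genes of the GDNF family 6 were kept, with a median of -0.074. The receptor tyrosine kinase gene Ret and the neurturin co-receptor gene Gfra2 differed by -0.50 and -0.44 and were lower in 3 of 3 pairs, and Gfra4 differed by 0.18.

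Of 20 other survival factor genes 14 were kept, with a median log2 difference of 0.038. Nxnl1, the source of rod-derived cone viability factor, and Igf1, insulin-like growth factor 1, differed by -0.56 ± 0.45 and -0.42 ± 0.37 (SE) and were lower in 3 of 3 pairs. Ptn, the growth factor pleiotrophin, differed by 0.17. The Nudix hydrolases other than Nudt6 did not share its difference in size. Of 22 such genes 19 had a probe set with 1 symbol, and all 19 were kept. Their differences ran from -0.54 to 0.19, and their median was -0.011. Nudt7, a peroxisomal coenzyme A hydrolase, differed by -0.33, Nudt12 by -0.54 and Nudt17 by -0.15, and the genotypes overlapped in all 19.

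**Figure D4:**
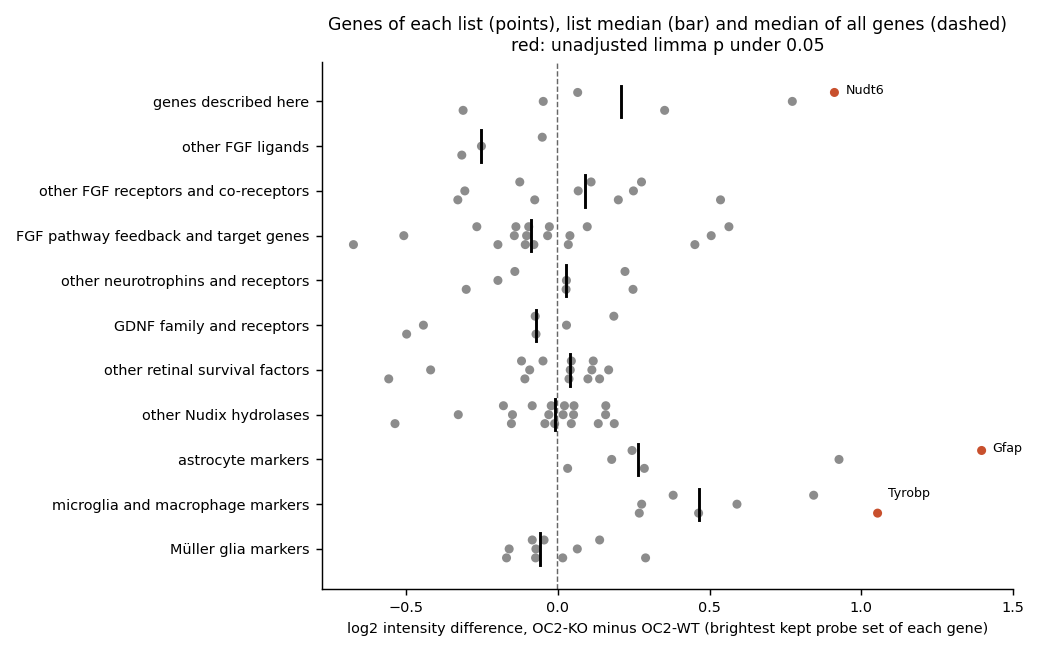
Log2 intensity difference, OC2-KO minus OC2-WT (horizontal axis), of each gene's brightest kept probe set, by gene list (vertical axis), with black bars for the list median, a dashed line for the median of all genes and red points for an unadjusted limma p under 0.05. No gene of the 7 pathway lists is red, and Nudt6 (0.91), Gfap (1.40) and Tyrobp (1.05) are.

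Markers of glia and immune cells were set beside these values. Of 7 astrocyte markers 6 had a probe set with 1 symbol, and all 6 were kept and above 0. Their summed linear intensity was 6843 to 8559 in OC2-WT and 8163 to 10563 in OC2-KO. Gfap, the intermediate filament of reactive glia, had the largest difference of them, at 1.40. By antibody staining the study saw more GFAP in Müller glia processes, so Gfap does not mark astrocytes alone here. The 7 kept microglia and macrophage markers of 12 were above 0, but 2 of them, Tmem119 and C1qb, passed the filter only through OC2-KO and could not have been below 0. Tyrobp, a myeloid adaptor, differed by 1.05. The microglia markers summed to 2545 to 3067 in OC2-WT and 3403 to 4382 in OC2-KO, and their mean log2 intensity was 7.77, 8.18 and 7.76 on OC2-WT arrays 1, 2 and 3 and 8.53, 8.70 and 8.15 on OC2-KO arrays 1, 2 and 3. The 10 Müller glia markers summed to 41609 to 48495 in OC2-WT and 32747 to 52399 in OC2-KO, with 4 above 0. Of 5 retinal stress genes 4 had a probe set with 1 symbol, and C4b did not. All 4 were kept and had a limma unadjusted p under 0.05 with no overlap between genotypes. Edn2, an endothelin of stressed photoreceptors, differed by 3.13, Cebpd by 2.63, Gfap by 1.40 and Cd44 by 1.08, each with an adjusted p of 0.210 or more. The study named these stress genes on the same arrays, so their direction on the arrays is not independent evidence. In the authors' follow-up qPCR on adult retinas, Cebpd, Edn2 and Gfap RNA also rose in OC2-KO. For Cd44 the study cites the arrays only. The part of all these cells and genes in the Nudt6 difference was not tested. The microglia sums did not overlap between genotypes but the mean log2 values did (two-sided exact permutation p = 0.2, the smallest possible being 0.1). Both measures include Tmem119 and C1qb, admitted only through OC2-KO, so they cannot decide whether the list differed. The astrocyte sums overlapped, and the Müller glia sums of OC2-KO spanned the OC2-WT range.

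Of the 14 kept lens markers of 16, 13 were above 0, with a median log2 difference of 0.92. Of the 14, 2 passed the filter only through OC2-KO and 1, Lim2, the marker below 0, only through OC2-WT. The filter fixed the sign of each of these. Their mean log2 intensity was 11.18, 9.88 and 7.59 on OC2-WT arrays 1, 2 and 3 and 10.55, 10.73 and 10.01 on OC2-KO arrays 1, 2 and 3. OC2-WT array 3 was the lowest for lens markers, as it was for Nudt6 on 1456945_at, and OC2-WT array 1 the highest, so the genotypes overlapped (two-sided exact permutation p = 0.6). These means include the markers whose sign the filter fixed. The part of lens RNA in the Nudt6 difference was not tested. The lens markers summed to 6847 to 77173 in OC2-WT and 42665 to 61845 in OC2-KO. The 9 kept pigment epithelium and melanocyte markers, 3 above 0 and 6 below 0 with a median of -0.38, summed to 25214 to 87113 in OC2-WT and 14907 to 70650 in OC2-KO. All 5 kept vascular markers of 10 were above 0, with a median of 0.15, summing to 1993 to 3290 and 2194 to 4215. The 14 kept markers that define neural retina were present on each array, at a mean log2 intensity of 12.67 to 13.34. The largest difference among them was in Calb1, a horizontal cell marker, which differed by -0.76.

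The genes whose pattern over the 6 arrays was most like that of Nudt6 on 1456945_at were sought by the root mean square difference between centred log2 values, over 18703 kept probe sets, where Nudt6's own root mean square deviation was 0.51. They were Crym, a thyroid hormone binding protein gene, at 0.16, the protocadherin gene Pcdhb19 at 0.18, Pigz of GPI anchor synthesis at 0.19, Ndufaf6 of respiratory complex I assembly at 0.20 and the chromatin remodeller gene Srcap at 0.20. The log2 differences of these genes were 0.61 to 0.70, below the 0.91 of Nudt6. Because the pattern holds the genotype difference of Nudt6, the search itself picked genes higher in OC2-KO, and their direction is no separate result. The Fgf2 pattern, with a deviation of 1.38, is mainly the low value of OC2-WT array 2 near the bottom of the scale, so likeness to it is a weak description. The nearest was H2-D1 at 0.40, then Cpt1a at 0.54, Marcksl1 at 0.60, Tax1bp1 at 0.61 and Dynlrb2 at 0.65.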

How the data were processed

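Retinal RNA of 3 OC2-KO and 3 OC2-WT samples was amplified, biotin-labelled and hybridised by the authors to 1 Affymetrix Mouse Genome array each. The deposited intensity values are linear MAS5 intensities, which the authors background-adjusted and normalized, and whose 2% trimmed mean was 500 on every array. The sources used here name no MAS5 version. Detection calls were not analysed here, and scaling hides any difference shared by all genes. The number of arrays limits the precision. Genotypes and array numbers came from the sample titles. Platform annotation named 34945 probe sets with 1 symbol.

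Log2 values of all 21176 kept probe sets entered lmFit and eBayes (limma 3.58.1, R 4.3.3) with neither trend nor block, two-sided, with 4 residual degrees of freedom and Benjamini-Hochberg adjustment. Probe sets below the filter were read from a fit without it. The fit was run on simulated data only to check that mean estimates lay near known changes. That check does not measure its power or error rate. Each array's deviations from its genotype mean gave correlations of 0.576, 0.590 and 0.585 for same-numbered arrays and of -0.429 to -0.135 for the others, and the arrays were taken as paired by number. The members and gene lists were chosen with earlier results of these data known. Named genes were all probe sets of the described genes, up to 3 genes per pathway list by smallest p, of the marker and stress lists those with an unadjusted p under 0.05, 3 annotated genes on either side of the Fgf2 and Nudt6 pair, and the 5 nearest patterns. Promoter windows were read from RefSeq tables of GRCm38.p6.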

Additional observations from a re-analysis of the deposited data

How the results depend on the processing

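The array limits what can be seen of low transcripts, since 9 of the 19 probe sets described here lay below the filter and 3 arrays per genotype leave wide intervals. For Nudt6 on 1456945_at the log2 difference stayed above 0 in all 17 alternatives, with an adjusted p from 0.502 to 1.00. No alternative gave any of the kept probe sets described here an adjusted p under 0.05.

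Over all kept probe sets, 0 passed adjustment with limma and with the methods' t-test, where 209 and 300 had an unadjusted p under 0.05. When the replicate block was combined with an intensity trend, 6 probe sets of the array passed adjustment, and none of them belongs to the genes described here. The count at an unadjusted p under 0.05 moved from 209 to 1144 without a filter, 127 with a filter at 8, 887 with the replicate block and 779 with the block and trend, and ran from 209 to 560 when each array was left out in turn, the highest without OC2-KO replicate 2. The blocked fit changed no call of a gene described here after adjustment. The number of non-overlapping probe sets rose from 694 to 2220 without a filter, to 3877 without both arrays numbered 3 and to 1736 to 3288 with each array left out, where fewer arrays make non-overlap easier. Leaving out each array gave 1 to 2 described probe sets an unadjusted p under 0.05, the second being Fgf1 on 1423136_at without OC2-WT replicate 2. A fit on 1 row per gene, the mean of its kept probe sets, gave 2 pathway genes, Dusp4 and Il17rd, such a p in place of 0. Their differences did not move, so the averaging itself changed neither gene. In the 100 bases before the start, the motifs ATTGAT and TTCNNNGAA were found in 0 of the 15 windows in place of 1 each.

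Of the 10 kept probe sets described here, 7 changed sign in at least 1 alternative, including Fgfr1 and Bdnf probe sets with reported differences of -0.31 and 0.35. With each array left out, Fgf1 on 1450869_at ran from -0.18 to 0.50, Fgf9 on 1420795_at from -0.29 to 0.12 and on 1438718_at from -0.17 to 0.0056, Fgfr1 on 1424050_s_at from -0.69 to 0.18, Fgfr2 on 1433489_s_at from -0.089 to 0.22, and Bdnf on 1422168_a_at from -0.44 to 0.28 and on 1422169_a_at from -0.14 to 0.80. Without both arrays numbered 3, Fgf1 on 1450869_at and Fgfr2 on 1433489_s_at came to -0.12 and -0.10, and with quantile normalization Bdnf on 1422168_a_at came to 0.037. The cause of these changes was not tested.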
